A study of Mus musculus with 5 samples.

Results

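The 9 genes described here, Nr4a1, Nr4a2, Nr4a3, Tox, Tox2, Batf, Prdm1, Eomes and Tbx21, encode transcription factors that are used to describe T cell exhaustion. They were taken by symbol from the feature lists of the T cell libraries and are 9 of the 32285 features listed. T cells were obtained from mammary fat pad tumors of 4T1, a mouse mammary carcinoma line (4T1-Th1.1 in the series text), grown in immune competent female BALB/c mice that were 12 weeks old per the labels. All of these mice received doxorubicin (DOX) intravenously, 3 doses of 5 mg/kg given 3 days apart, and their tumors were labelled Sensitive or Resistant to DOX. The T cell libraries hold no untreated group. Other cells were depleted with magnetic beads, cancer cells through CD90.1, and each library pooled the T cells from 3 tumors, so that spread between mice could not be measured. Each group was 1 droplet library of 3′ transcript counts, in which every captured molecule carries a unique molecular identifier (UMI). With 1 library per group no difference below has a replicate check and none was tested: intervals are 95% and cover counting error only. Where a pair of values is given without naming the libraries, the sensitive one comes first.

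Exhaustion is the state that T cells enter when their antigen persists, as it does in tumors. They keep inhibitory receptors such as PD-1, LAG-3 and TIM-3 (encoded by Pdcd1, Lag3 and Havcr2) and lose part of their cytokine output. T cell receptor signaling activates NFAT, which without enough AP-1 partner drives the NR4A nuclear receptors and the HMG-box factors TOX and TOX2, and these in turn sustain inhibitory receptor expression. BATF is an AP-1 family factor, Blimp-1 (from Prdm1) is a repressor found in effector and exhausted cells, and the T-box factors Eomes and T-bet (from Tbx21) divide exhausted and effector CD8 cells between them. Nr4a genes are also immediate early genes that many cell types switch on within minutes of a stimulus.

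On the GRCm38 assembly (GENCODE vM21) all 9 are protein-coding genes. Nr4a1 lies at chr15:101254269-101274795 on the plus strand, Nr4a2 at chr2:57106830-57124003 on the minus strand and Nr4a3 at chr4:48045153-48086447 on the plus strand. Tox spans chr4:6686353-6991557 on the minus strand and Tox2 chr2:163203125-163324170 on the plus strand. Batf lies at chr12:85686669-85709087 on the plus strand, Prdm1 at chr10:44437177-44528501 on the minus strand, Eomes at chr9:118478212-118486132 on the plus strand and Tbx21 at chr11:97098071-97115331 on the minus strand. A promoter entry of RefSeq (GRCm38.p6) was matched by symbol for 8 of the 9, all but Tox.

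The 3 Nr4a promoters are shown because the contrast between Nr4a1 and Nr4a2 runs through the results below. That of Nr4a1 lies inside the longer GENCODE gene span, before the RefSeq start. Each is printed 5′ to 3′ along its gene and ends at the base before the first annotated exon or transcription start. The cyclic AMP response element half-site (TGACG, or CGTCA when read from the other strand), a letter pattern bound by CREB family factors, is in capitals.
Nr4a1 (chr15:101266596-101266845, plus strand): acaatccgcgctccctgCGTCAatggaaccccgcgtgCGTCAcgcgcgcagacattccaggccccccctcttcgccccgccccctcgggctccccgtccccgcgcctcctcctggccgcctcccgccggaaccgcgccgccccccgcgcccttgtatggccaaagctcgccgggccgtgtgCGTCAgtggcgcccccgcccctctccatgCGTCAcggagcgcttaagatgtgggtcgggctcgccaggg
Nr4a2 (chr2:57124004-57124253, minus strand): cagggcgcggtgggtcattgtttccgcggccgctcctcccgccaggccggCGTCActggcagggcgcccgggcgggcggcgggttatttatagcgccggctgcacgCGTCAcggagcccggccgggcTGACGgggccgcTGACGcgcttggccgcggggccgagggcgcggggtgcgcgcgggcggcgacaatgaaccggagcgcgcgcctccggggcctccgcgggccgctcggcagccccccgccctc
Nr4a3 (chr4:48045055-48045152, plus strand): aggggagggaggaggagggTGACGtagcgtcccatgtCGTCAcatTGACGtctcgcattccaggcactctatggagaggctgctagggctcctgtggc
In the 250 bases before the start, Nr4a1, Nr4a2 and Nr4a3 each held 4 half-sites, of which 3 lie in the shorter Nr4a3 stretch printed. Of 32851 promoter windows of that length, 17.8% held a half-site on either strand and 0.137% (45 windows) held 4 or more. The half-sites lay 233, 213, 69 and 40 bases before the Nr4a1 start, 200, 144, 123 and 111 before that of Nr4a2, and 231, 213, 205 and 147 before that of Nr4a3. Among the other members Batf and Prdm1 held 1 each, 1 of the 5 Tox2 entries held 1, and Eomes and Tbx21 held none. The full element TGACGTCA, which counts as 2 half-sites and occurs in 1.55% of windows, was in no member's window. The AP-1 site TGANTCA (6.75% of windows) was found only before Prdm1, and the NFAT core GGAAA (55.6% of windows) was found before Nr4a2, Batf, Tbx21 and 2 of the Tox2 entries. These are letter matches and not sites shown to be bound.

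The sensitive library held 3949 barcodes and 31690845 UMIs and the resistant library 6116 barcodes and 35908799 UMIs. The libraries differed in quality. Mitochondrial UMIs exceeded 10% in 5.90% of sensitive and 45.7% of resistant barcodes, and after filters on genes, mitochondrial share and putative doublets 3459 and 3166 cells were kept. The libraries shared 31 barcode sequences, 18 of them after filters. CD8+ cells, defined by a Cd3 UMI, a Cd8a or Cd8b1 UMI and no Cd4 UMI within T or natural killer clusters, numbered 1327 and 1611, with medians of 4031 and 4641 UMIs and of 2.49% and 5.63% mitochondrial UMIs. In these cells the markers of fibroblasts, macrophages or monocytes, neutrophils and dendritic cells were higher in the resistant library, and those of natural killer cells were level. Summed over each list, fibroblast markers were at 62.9 and 115 CPM (UMIs scaled to the total UMIs of the cells), macrophage or monocyte markers at 18.1 and 78.1 CPM, neutrophil markers at 4.00 and 33.0 CPM and B cell markers at 2.77 and 3.62 CPM in the sensitive and resistant library, with all 6 fibroblast markers seen in both and 5 and 6 of 6 macrophage markers. Of the neutrophil markers 3 and 5 of 5 were seen, and of the B cell markers 1 and 2 of 4. Dendritic cell markers were at 42.3 and 54.7 CPM, with 3 of 5 seen in each library, cancer cell markers at 12.5 and 16.4 CPM with 5 of 5, and natural killer markers at 117 and 116 CPM with 3 of 4. The part of these differences in the results was not tested.

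Whether the factors go with the number of inhibitory receptors was examined first. Each CD8+ cell was thinned at random to 2000 UMIs, because a deeper cell shows more receptors, and counted by how many of Pdcd1, Lag3 and Havcr2 it then showed (117 sensitive and 87 resistant cells were shallower and left out). In the sensitive library 465, 370, 294 and 81 cells showed 0, 1, 2 and 3 receptors, and in the resistant library 456, 659, 363 and 46 did. At this depth no receptor was seen in 38.4% of sensitive and 29.9% of resistant CD8+ cells. Nr4a2, Nr4a3, Tox, Batf and Prdm1 were higher in cells with 2 or 3 receptors than in cells with none in the sensitive library. In the resistant library Nr4a2 and Tox were higher. The resistant ratios of Nr4a3 (2.74, 1.40 to 5.70) and Prdm1 (2.35, 1.01 to 5.91) also lay above 1. They had too few UMIs to be counted by the rule given below. Nr4a1 and Tbx21 differed by less than counting error between cells with 2 or 3 receptors and cells with none.

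**Figure D1:**
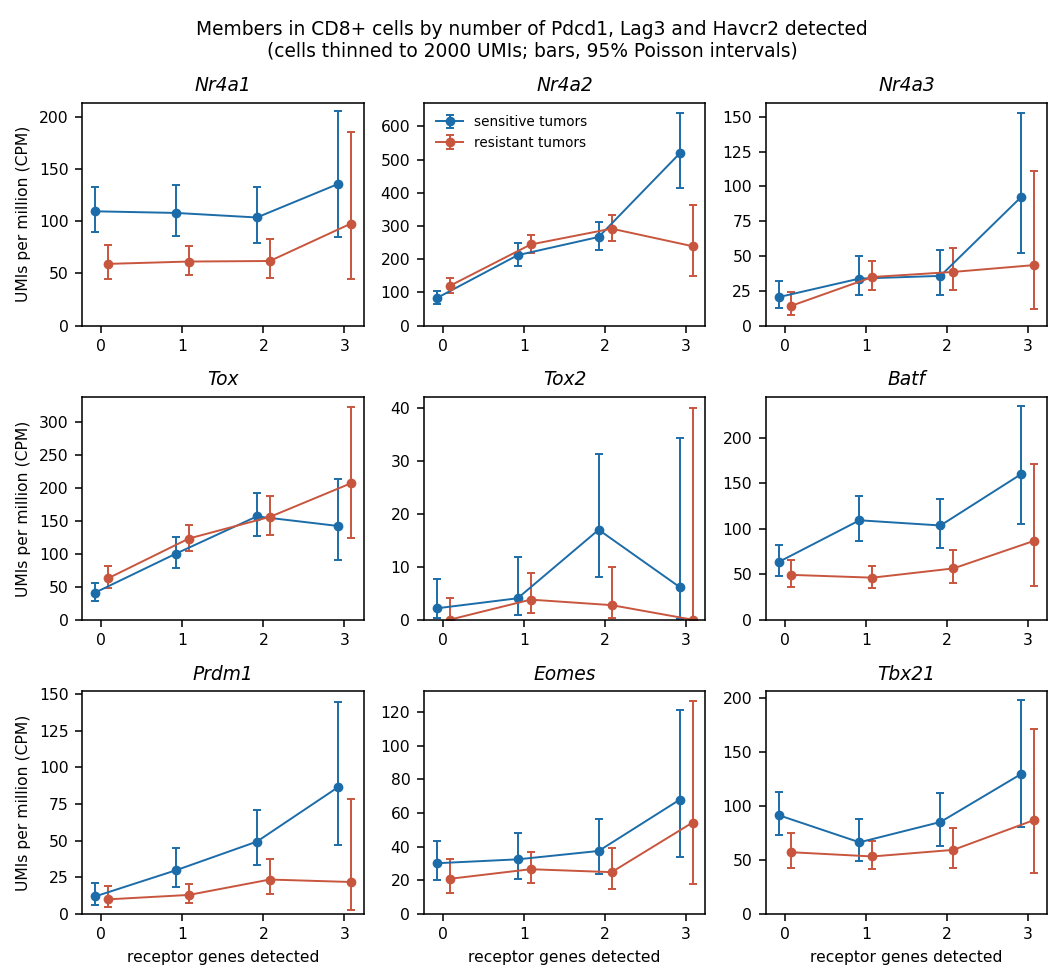
Level of each factor (CPM, vertical axes differ) in CD8+ cells with 0 to 3 of the receptor genes Pdcd1, Lag3 and Havcr2 detected at 2000 UMIs per cell, for the sensitive (blue) and resistant (red) library. Points are summed UMIs as CPM and bars 95% Poisson intervals. Nr4a2 and Tox climb from 0 to 2 receptors in both libraries while Nr4a1 stays level from 0 to 2, between 103.7 and 109.7 CPM in sensitive and 59.2 and 62.0 CPM in resistant cells.

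The Nr4a receptors are orphan nuclear receptors that act without a known ligand. Nr4a2 was at 82.8, 212, 267 and 519 CPM in sensitive cells with 0, 1, 2 and 3 receptors, and at 119.5, 244, 292 and 239 CPM in resistant cells. Intervals of the classes with 0 and 1 receptor did not overlap in either library. The level in cells with 2 or 3 receptors was 3.88 times that in cells with none in the sensitive library (2.99 to 5.08) and 2.39 times in the resistant library (1.90 to 3.03). Nr4a3 followed at lower counts, with 20.4, 33.8, 35.7 and 92.6 CPM in sensitive and 14.3, 34.9, 38.6 and 43.5 CPM in resistant cells. Its ratio was 2.35 (1.31 to 4.34) in the sensitive library and 2.74 (1.40 to 5.70) in the resistant library, where only 45 UMIs stood behind it. Nr4a1, the family member read most often as a reporter of recent antigen receptor signaling, behaved otherwise. It was at 109.7, 108, 103.7 and 136 CPM in sensitive and at 59.2, 61.5, 62.0 and 97.8 CPM in resistant cells. Its ratios were 1.01 (0.746 to 1.36) and 1.11 (0.750 to 1.66). The resistant ratio depended on the cells kept, at 1.81 (1.21 to 2.75) with a mitochondrial limit of 20% and 0.640 (0.363 to 1.10) without cells with Mki67 or Top2a.

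Tox, the factor that installs the exhausted chromatin state, was at 40.9, 100, 156.5 and 142 CPM in sensitive cells with 0, 1, 2 and 3 receptors. In resistant cells it was at 62.5, 123, 156 and 206.5 CPM. Classes with 2 and 3 receptors overlapped within their intervals in both libraries, and the class with none lay below the others. Its ratio of 2 or 3 over 0 receptors was 3.75 (2.58 to 5.57) in the sensitive and 2.58 (1.88 to 3.59) in the resistant library. Tox2, a close relative that follicular helper and exhausted cells use, was rare. It gave 11 UMIs in the sensitive cells with 2 or 3 receptors and 2 in those with none, and 2 and 0 UMIs in the resistant library, too few for a ratio to be read.

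Batf, which pairs with JUN proteins and IRF4, was at 63.4, 109.5, 103.7 and 160.5 CPM in sensitive cells with 0 to 3 receptors and at 49.3, 46.3, 56.5 and 87.0 CPM in resistant ones. The ratio was 1.83 (1.30 to 2.59) in the sensitive cells, but 1.01 (0.412 to 3.21) within cluster 0, the cluster led by Gzmf, Prf1 and Lag3. The resistant ratio was 1.21 (0.793 to 1.86), and it was 1.92 (1.51 to 2.48) when a receptor needed 2 UMIs and cells were not thinned, 1.76 (0.717 to 3.78) with all 3 receptors and 1.63 (0.994 to 2.70) without cells with Mki67 or Top2a. Whether the libraries differ in this ratio was not tested. Prdm1 was at 11.8, 29.7, 49.3 and 86.4 CPM in sensitive cells. In resistant cells it was at 9.87, 12.9, 23.4 and 21.7 CPM. The sensitive classes with 2 and 3 receptors lay above the class with none, and the pooled ratio was 4.85 (2.46 to 10.4). The resistant ratio of 2.35 (1.01 to 5.91) rested on 28 UMIs.

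The ratios of both T-box factors lay within 1.5-fold. Eomes was at 30.1, 32.4, 37.4 and 67.9 CPM in sensitive and at 20.8, 26.6, 24.8 and 54.3 CPM in resistant cells, and all intervals overlapped within a library. Its ratio of 2 or 3 over 0 was 1.46 (0.856 to 2.51) in the sensitive library and 1.35 (0.703 to 2.62) over 42 UMIs in the resistant. With no doublets removed it was 1.96 (1.09 to 3.61) and 1.57 (0.869 to 2.88), past 1.5-fold in both libraries. Tbx21, the effector T-box factor, was at 91.4, 66.2, 85.0 and 130 CPM in sensitive and at 57.0, 53.1, 59.2 and 87.0 CPM in resistant cells. Its ratios were 1.04 (0.745 to 1.44) and 1.09 (0.728 to 1.64). The resistant ratio depended on the classes compared, at 0.464 (0.144 to 1.16) from 5 and 48 UMIs with cells thinned to 1000 UMIs and 1.53 (0.626 to 3.23) from 8 and 52 UMIs with all 3 receptors against none.

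A gene was counted as higher or lower when its ratio reached 1.5 or fell to 1/1.5 and at least 50 UMIs stood behind it. By this rule 5 of the 8 members with enough UMIs were higher and 0 lower in the sensitive library, where 9.47% of 4130 genes were higher and 7.72% lower. Among resistant cells 2 of 5 members were higher and 0 lower, against 5.92% and 4.97% of 3903 genes. Over 17 alternatives the number of members past 1.5-fold ranged from 0 to 6 in the sensitive and from 0 to 5 in the resistant library. The median ratio was 2.09 for the 8 members and 1.01 for all genes in the sensitive library. It was 1.21 for the 5 members and 0.999 for all genes in the resistant library. The resistant median leaves out Nr4a3 (2.74), Prdm1 (2.35) and Eomes (1.35), which had fewer than 50 UMIs there. The 2 medians therefore cover different members. Counted cell by cell, the mean number of the 9 factors with a UMI was 0.667, 1.00, 1.23 and 1.67 for sensitive cells with 0 to 3 receptors and 0.632, 0.886, 1.02 and 1.35 for resistant cells. Cells showing 2 or more factors made up 14.0% of sensitive cells with no receptor and 48.1% of those with 3, and 14.3% and 39.1% of resistant cells.

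**Figure D2:**
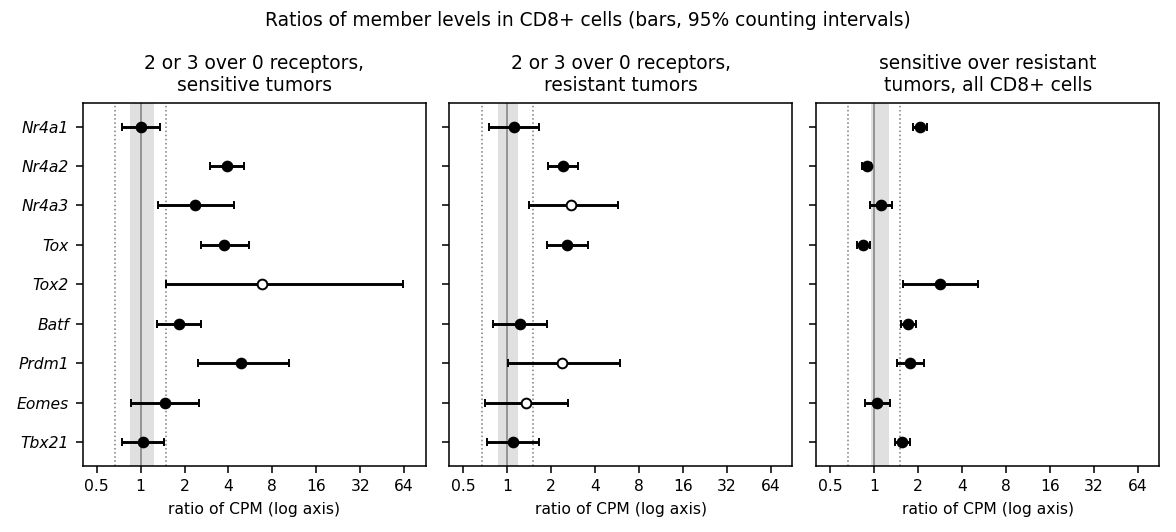
Ratio of CPM in CD8+ cells for each factor (log axis) in the 3 comparisons, with 95% counting intervals. Open points have fewer than 50 UMIs, dotted lines mark the 1.5-fold limits, and the gray band holds the middle 50% of all genes. Tox2 is not drawn in the resistant receptor comparison, where cells with none held 0 UMIs. Nr4a2 and Tox stand at 2.39 to 3.88 in both receptor comparisons and at 0.844 to 0.891 between libraries. Nr4a1 is near 1 by receptors and at 2.05 between libraries.

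Other features moved with the receptor classes, and their part in the ratios was not tested. Cells with a UMI of the proliferation genes Mki67 or Top2a made up 9.03% and 15.4% of cells with none and 12.5% and 18.1% of cells with 2 or 3. Natural killer markers summed to 55.9 and 92.1 CPM in cells with none and to 172 and 144 CPM in cells with 2 or 3. Fibroblast markers were at 77.4 and 161 CPM in cells with none and 85.3 and 83.1 CPM in cells with 2 or 3, and macrophage or monocyte markers at 12.9 and 98.7 CPM and at 20 and 68.5 CPM. The classes also came from different clusters. Cluster 10, led by immunoglobulin transcripts with a Cd3 UMI in 99.5% of its cells, held 59.1% of the sensitive cells with no receptor and 33.1% of the resistant ones. Cluster 0, led by Gzmf, Prf1 and Lag3, held 60% of sensitive cells with 2 or 3 receptors, and cluster 2, led by Gm156 and Klra5 and with Tox itself among its 10 leading genes, held 42.5% of resistant ones. Within cluster 0 the Nr4a2 ratio was 1.32 (0.739 to 2.59) in the sensitive library, with 12 UMIs in its cells without receptors, and 1.14 in the resistant library. Within cluster 2 of the resistant library it was 1.46 (1.04 to 2.07) and that of Tox 1.20. The clusters were drawn with these genes among others, and the comparison within clusters was added after the data had been seen. Without cluster 10, also left out after seeing the data, Nr4a2 kept ratios of 3.54 and 1.92 and Tox of 5.44 and 1.93.

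The level of Nr4a1 differed with which receptor was seen. Among cells with exactly 1 receptor, 207 sensitive and 374 resistant cells showed Pdcd1 and 147 and 253 showed Lag3. Nr4a1 was at 138 CPM in sensitive and 81.6 CPM in resistant cells with Pdcd1 only, 1.26 times (0.891 to 1.75) and 1.38 times (0.939 to 2.02) the level in cells with none. In cells with Lag3 only it was at 68.0 and 31.6 CPM, 0.620 times (0.364 to 1.01) and 0.534 times (0.285 to 0.947). Intervals of the Nr4a1 level in Pdcd1-only cells (104 to 178 CPM sensitive, 62.4 to 105 CPM resistant) overlapped those of Lag3-only cells slightly in the sensitive library (41.6 to 105 CPM) and not in the resistant (18.1 to 51.3 CPM). Nr4a2 and Tox were above the level of cells with none with either receptor. Nr4a2 was 2.83 and 2.18 times the level of cells with none in Pdcd1-only cells and 2.22 and 1.90 times in Lag3-only cells, and Tox was 2.54 and 2.10 times and 2.58 and 1.80 times. Tbx21 in sensitive Lag3-only cells was at 0.484 times (0.247 to 0.872). Havcr2 alone was seen in only 16 and 32 cells.

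Genes of the same pathways were counted from lists chosen with earlier results of these data known. The shares of all genes given above, 9.47% higher and 7.72% lower in the sensitive and 5.92% and 4.97% in the resistant library, apply to these counts too. Of 9 other receptors and ectoenzymes seen on exhausted cells, 5 of 7 with enough UMIs were higher with 2 or 3 receptors in the sensitive library and 5 of 9 in the resistant, none lower. Among them were the costimulatory receptors Tnfrsf9 (ratios 4.74 and 2.16) and Tnfrsf18 (2.06 in the sensitive library, 1.35 in the resistant), Tigit (3.07 in the sensitive library) and the ectoenzyme Entpd1 (2.13 in the resistant). Of 16 NFAT, AP-1 and IRF partners of the members, 8 of 14 and 6 of 12 were higher and none lower, led by Maf (6.54) and Irf8 (6.23) in the sensitive and by Irf8 (2.49) and Ikzf2 (1.98) in the resistant library. Of 12 effector genes 7 of 10 and 4 of 9 were higher, among them perforin, Prf1 (7.50 and 2.18), the chemokine Ccl3 (8.26 in the sensitive library) and Ifng (2.04 in the resistant), while Tnf (0.596) was lower in the sensitive and Gzma (0.374) in the resistant library. Progenitor genes went the other way, with 2 of 3 lower in the sensitive library, Tcf7 (0.08) and Klf2 (0.610), and 1 of 2, Klf2 (0.586), in the resistant. Other immediate early genes, the class to which all 3 Nr4a genes belong, did not follow the receptors as a group. In the sensitive library 2 of 10 were higher, Dusp5 (2.19) and Egr1 (1.91), and 1 lower, Nfkbid (0.585), with a median of 0.895. Among resistant cells 0 of 10 were higher and 1 lower, Myc (0.532), with a median of 1.13. The TOX relative Tox4 was at 1.68 and 0.871, and of the cell cycle genes only Top2a in the sensitive library reached the limit (1.5).

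The libraries were compared next over all CD8+ cells at full depth. Nr4a1, Tox2, Batf, Prdm1 and Tbx21 were higher in CD8+ cells of sensitive tumors, while Nr4a2, Nr4a3, Tox and Eomes lay within 1.5-fold. The median ratio of all 9566 genes with enough UMIs was 1.09 rather than 1, and ratios are to be read against it. By the 1.5-fold rule 5 of 9 members were higher and 0 lower, against 6.76% of genes higher and 3.63% lower, and the members' median was 1.56. Nr4a1 was at 122 and 59.4 CPM (ratio 2.05, 1.84 to 2.29). Batf was at 100.1 and 58.4 CPM (1.71, 1.53 to 1.92), Prdm1 at 30.3 and 17.2 CPM (1.77, 1.43 to 2.19) and Tbx21 at 89.8 and 57.4 CPM (1.56, 1.39 to 1.76). Tox2 was at 5.69 and 2.02 CPM (2.81, 1.57 to 5.17), from 37 and 19 UMIs. Tbx21 fell under the limit, at 1.43, once divided by the median ratio of all genes.

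Nr4a2 and Tox, which were higher with 2 or 3 receptors in both libraries, were slightly lower in the sensitive library. Nr4a2 was at 187.5 and 210.4 CPM (0.891, 0.829 to 0.958) and Tox at 96.5 and 114 CPM (0.844, 0.763 to 0.932), both inside the 1.5-fold limit. Nr4a3 was at 34.7 and 31.2 CPM (1.11, 0.931 to 1.33) and Eomes at 26.9 and 25.6 CPM (1.05, 0.861 to 1.28).

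At equal depth and within a receptor class, Nr4a1 stayed higher in sensitive cells with 0, 1 and 2 receptors. The ratios were 1.85 (1.32 to 2.63), 1.76 (1.28 to 2.43) and 1.67 (1.12 to 2.52). For 3 receptors the Nr4a1 ratio was 1.39 (0.614 to 3.42) from 31 UMIs. Batf was at 1.29, 2.37 and 1.84 for 0, 1 and 2 receptors, and at 1.85 (0.811 to 4.72) from 34 UMIs for 3. For Tox the ratio was 0.654 (0.422 to 1.00) in cells with no receptor, 0.814 and 1.01 with 1 and 2, and 0.687 (0.358 to 1.33) from 42 UMIs with 3. Nr4a2 was at 0.693, 0.868 and 0.914 in cells with 0, 1 and 2 receptors and at 2.17 (1.34 to 3.64) in those with 3, where 81 sensitive and 46 resistant cells were compared. Over all CD8+ cells at this depth, an Nr4a1 UMI was seen in 13.4% of sensitive and 9.32% of resistant cells. Nr4a2 was seen in 21.2% and 25.4%, Tox in 14.9% and 18.8%, Batf in 15.1% and 9.06% and Tbx21 in 14.8% and 10.6%. In fibroblast-like cells thinned to the same depth (medians of 13458 and 14074.5 UMIs before thinning) the shares were 0.380% and 1.48% for Nr4a2, 0.253% and 0.820% for Tox, 0.253% and 0% for Batf and 0% in both for Tbx21. Shares of 0% have Clopper-Pearson upper limits of 0.466% among 789 sensitive and 0.603% among 610 resistant cells. For these 4 genes the CD8+ shares lay above this fibroblast-like background. Sensitive macrophage or monocyte-like cells at this depth showed Nr4a2 in 10.5%, Batf in 5.26%, Tbx21 in 0.526% and Tox in 0% (upper limit 1.92%). Fibroblasts use Nr4a1 themselves, and 18.3% and 12.8% of them showed it.

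By cluster, the Nr4a1 ratio of the libraries ranged from 1.11 to 2.89. In cluster 0, the cytotoxic cells in which 82.7% and 82.1% of cells showed 2 or 3 receptors at full depth, it was at 124 and 111 CPM in 375 sensitive and 263 resistant cells, a ratio of 1.11 (0.913 to 1.36). In cluster 2 it was low in both, at 33.0 and 25.6 CPM in 206 and 640 cells. In cluster 10 it was at 119 and 41.3 CPM in 448 and 266 cells (2.89, 2.09 to 4.07), and in the proliferating cluster 17, led by Mki67 and Stmn1, at 124 and 69.0 CPM (1.79, 1.42 to 2.27). In cluster 8 it was also low, at 40.3 and 31.7 CPM from 18 and 24 UMIs. Cluster 2 held 640 of the 1611 resistant and 206 of the 1327 sensitive CD8+ cells. Immunoglobulin transcripts in cluster 10 came mostly from few resistant cells, with 15438 UMIs in 9.77% of them against 92 UMIs in 14.3% of the sensitive ones. Without this cluster the Nr4a1 ratio of the libraries was 1.98.

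**Figure D3:**
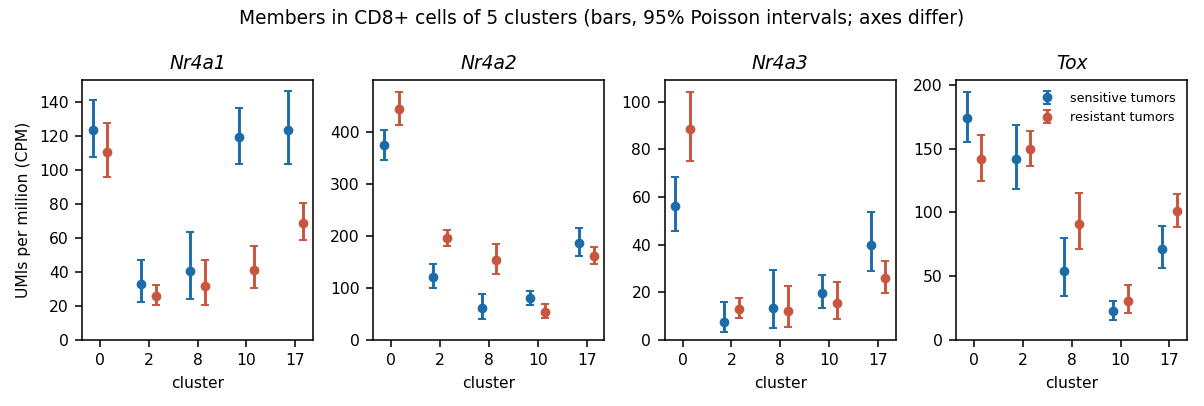
Level of Nr4a1, Nr4a2, Nr4a3 and Tox (CPM, vertical axes differ) in CD8+ cells of the 5 clusters that hold most of them, in the sensitive (blue) and resistant (red) library, with 95% Poisson intervals. Nr4a1 is above 100 CPM in both libraries in cluster 0, and in cluster 2 it is at 33.0 and 25.6 CPM, while Nr4a2 is highest in cluster 0 at 375 and 445 CPM.

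Other factors differed by cluster as well. Nr4a2 in cluster 0 was at 375 and 445 CPM (0.841), and it was lower in the sensitive library in cluster 2, at 121 and 195 CPM (0.618, 0.50 to 0.759), and in cluster 8, led by interferon response genes such as Ifit3, at 60.4 and 153 CPM (0.394, 0.249 to 0.603). In the other clusters it was not, at 79.8 and 53.9 CPM in cluster 10 (1.48, 1.09 to 2.04) and 187 and 162 CPM in cluster 17 (1.15, 0.968 to 1.37). Nr4a3 in cluster 0 was at 56.2 and 88.7 CPM (0.634, 0.487 to 0.822) and in cluster 17 at 40.0 and 25.8 CPM (1.55, 1.02 to 2.33). In cluster 0 Batf (149 and 76.3 CPM, 1.96), Prdm1 (53.9 and 24.7 CPM, 2.19) and Eomes (46.0 and 28.2 CPM, 1.63) were higher in the sensitive library. Eomes in cluster 17 went the other way, at 16.8 and 33.4 CPM (0.501, 0.282 to 0.844). Tox was lower in the sensitive library in cluster 8 (0.589, 0.354 to 0.949) and within 1.5-fold in the other clusters. Tbx21 was higher in clusters 8 (1.69), 10 (1.95) and 17 (1.80) and within 1.5-fold in clusters 0 and 2. Cluster by cluster, 3 members were higher and 1 lower of 8 with enough UMIs in cluster 0 (10.7% of genes higher and 3.05% lower, 13.8% in either direction). In cluster 2 the counts were 1 and 1 of 7 (7.13% and 4.93%, 12.1% in either direction), in cluster 8 they were 2 and 2 of 4 (11.9% and 5.7%, 17.6% in either direction), in cluster 10 they were 2 and 0 of 7 (10.5% and 2.73%, 13.3% in either direction) and in cluster 17 they were 3 and 1 of 8 (9.24% and 4.27%, 13.5% in either direction).

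From the fixed lists, 9 of 12 effector genes were higher and 1 lower in sensitive CD8+ cells (median 1.83), where 6.76% of all genes were higher and 3.63% lower, with Ccl3 at 3.29, the late effector receptor Klrg1 at 2.62 and Gzma at 0.629. Of 10 progenitor genes 5 were higher and 1 lower (median 1.62), with Lef1 at 2.26 and Id3 at 0.660. Of 12 immediate early genes 6 were higher and 1 lower (median 1.46), with Egr2 at 1.87, Zfp36 at 1.72 and Egr3 at 0.533. Of 16 NFAT, AP-1 and IRF partners 4 were higher and 0 lower (median 1.19), led by Maf at 3.62 and Batf3 at 2.61. Of 12 receptors and ectoenzymes seen on exhausted cells, Pdcd1, Lag3 and Havcr2 included, 1 was higher and 1 lower, Ctla4 at 2.01 and Cd200r1 at 0.572. The cell cycle genes stood at a median of 0.754 and Tox4 at 1.14, with none past the limit.

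The members were then followed through the other lymphocytes of the libraries. Cells with Cd4 and no Foxp3 numbered 177 (sensitive) and 46 (resistant), Foxp3+ cells, the regulatory T cells, 47 and 12, gamma-delta T cells (Trdc without Cd4, Cd8 or Ncr1) 71 and 12, and natural killer cells (Ncr1 or Klrb1c without Cd3d, Cd3e or Cd8b1) 84 and 48. The Nr4a family split between these gates. In both libraries the highest level of Nr4a1 was in gamma-delta cells and that of Nr4a2 in CD8+ cells.

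**Figure D4:**
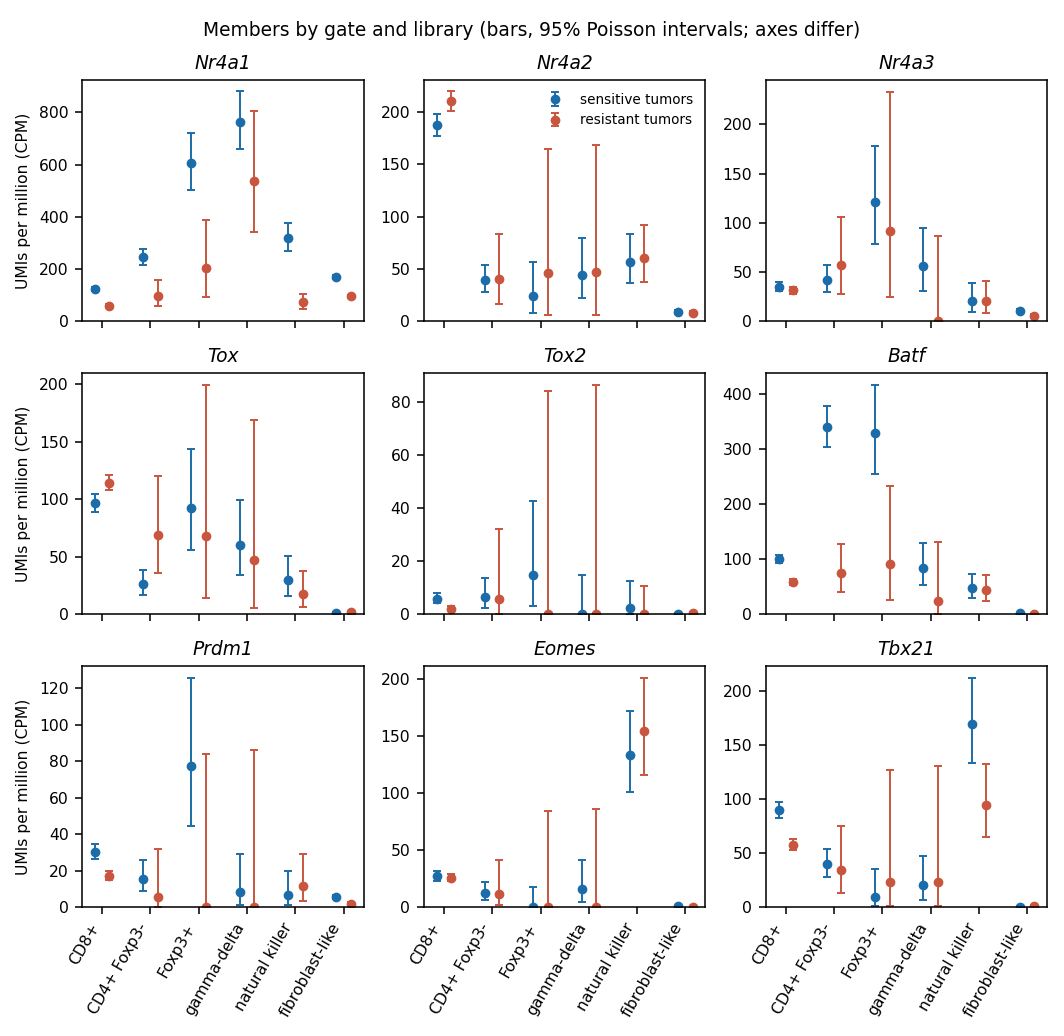
Level of each factor (CPM, vertical axes differ) in CD8+, CD4+ Foxp3-, Foxp3+, gamma-delta, natural killer and fibroblast-like cells of the sensitive (blue) and resistant (red) library, with 95% Poisson intervals. Nr4a2 is at 187.5 and 210.4 CPM in CD8+ cells and under 60 in the other gates, and Eomes is highest in natural killer cells.

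Nr4a1 was at 122, 244, 605, 765 and 320 CPM in sensitive CD8+, CD4+ Foxp3-, Foxp3+, gamma-delta and natural killer cells. Among resistant cells it was at 59.4, 97.7, 205, 538 and 71.4 CPM. Intervals of Foxp3+ (503 to 720 CPM) and gamma-delta cells (660 to 882 CPM) overlapped in the sensitive library and lay above the other 3 gates. With 12 cells in each, those of resistant Foxp3+ (93.7 to 389 CPM) and gamma-delta cells (341 to 807 CPM) overlapped too. Gamma-delta cells held 6.28 times (5.33 to 7.37) the CD8+ level in the sensitive and 9.05 times (5.69 to 13.7) in the resistant library. Natural killer cells held 2.63 times (2.18 to 3.15) the CD8+ level in the sensitive library, but 1.20 times (0.770 to 1.79) in the resistant. Nr4a2 ran opposite, at 187.5, 39.4, 24.2, 44.3 and 56.4 CPM in the sensitive and 210.4, 40.2, 45.5, 46.8 and 59.9 CPM in the resistant library in the same order of gates. The other sensitive gates held 0.129 to 0.301 of the CD8+ level and overlapped one another in their intervals. The resistant CD4+ Foxp3- and natural killer cells held 0.191 (0.0768 to 0.395) and 0.285 (0.176 to 0.437), while the resistant Foxp3+ and gamma-delta values rest on 2 UMIs each, with intervals of the ratio up to 0.783 and 0.804. Nr4a3 was at 34.7, 41.5, 121, 56.4 and 20.3 CPM in the sensitive library, with Foxp3+ cells at 3.48 times (2.21 to 5.27) the CD8+ level. The resistant levels were 31.2, 57.5, 91.1, 0 and 20 CPM, where a count of 0 in 12 gamma-delta cells allows up to 70.2 CPM.

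Tox was at 96.5, 25.9, 91.9, 60.4 and 29.3 CPM in sensitive CD8+, CD4+ Foxp3-, Foxp3+, gamma-delta and natural killer cells and at 114, 69.0, 68.3, 46.8 and 17.1 CPM in resistant ones, where Foxp3+ and gamma-delta cells gave 3 and 2 UMIs. Foxp3+ cells did not differ from CD8+ cells beyond counting error (0.952, 0.569 to 1.5) in the sensitive library, while natural killer cells held 0.304 and 0.15 of the CD8+ level. Tox2 was detected at 14.5 CPM or less in every gate. Batf was at 100.1, 339, 329, 84.5 and 47.4 CPM in the sensitive library, so that CD4+ Foxp3- and Foxp3+ cells held 3.39 times (2.96 to 3.88) and 3.29 times (2.52 to 4.22) the CD8+ level. Resistant levels of Batf were 58.4, 74.7, 91.1 (4 UMIs), 23.4 (1 UMI) and 42.8 CPM, where the ratio of CD4+ Foxp3- cells was 1.28 (0.677 to 2.21). Prdm1 was highest in sensitive Foxp3+ cells, at 77.4 CPM against 30.3 CPM in CD8+ cells (2.56, 1.43 to 4.26), and was not seen in the 12 resistant Foxp3+ cells, which allows up to 68.3 CPM.

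The T-box factors were led by natural killer cells, for which Eomes is a marker and was among the genes used to name their clusters. Eomes was at 133 and 154 CPM there against 26.9 and 25.6 CPM in CD8+ cells, 4.95 times (3.62 to 6.68) in the sensitive and 6.03 times (4.40 to 8.13) in the resistant library. No Eomes UMI was seen in the 47 and 12 Foxp3+ cells, which allows up to 14.5 and 68.3 CPM. Tbx21 was at 169 and 94.2 CPM in natural killer cells, 1.88 and 1.64 times the CD8+ level. In Foxp3+ cells it gave 2 and 1 UMIs, under the floor of 3 counts, with levels of up to 34.9 and 127 CPM inside the Poisson interval.

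The counts of members past 1.5-fold are not given for these gates. Of the 9 members 8 reached 50 UMIs in each gate, Tox2 being the exception, but mostly through the more numerous CD8+ cells. In the 12 resistant gamma-delta cells Nr4a3, Prdm1 and Eomes gave no UMI and Batf and Tbx21 gave 1 each.

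The higher Nr4a1 of the sensitive library was seen in most cell groups and not in CD8+ cells alone. The ratio of sensitive over resistant was 2.5 (1.53 to 4.36) in CD4+ Foxp3- cells, 2.95 (1.51 to 6.60) in Foxp3+ cells, 1.42 (0.920 to 2.30) in gamma-delta cells and 4.49 (2.92 to 7.17) in natural killer cells. The resistant cells of these gates gave 17, 9, 23 and 25 Nr4a1 UMIs. The ratio was 1.78 (1.65 to 1.92) in fibroblast-like cells, at 168 and 94.3 CPM, and turned to 0.535 (0.458 to 0.625) in macrophage or monocyte-like cells, at 107.5 and 201 CPM. The make-up of both groups differed between the libraries. Cluster 13 held 140 sensitive and 4 resistant fibroblast-like cells, and cluster 18 held 24 and 1 macrophage or monocyte-like cells. The part of this in the ratios was not tested. Few resistant cells stand behind the lymphocyte gates other than CD8+, where 3, 2, 1 and 3 members reached 50 UMIs, and no count is drawn from them. In fibroblast-like cells 3 of 4 were higher (7.47% of genes higher, 3.16% lower), and in the macrophage or monocyte-like group 1 of 5 was higher and 1 lower (7.43% and 3.44%). Batf was also higher in sensitive CD4+ Foxp3- (4.54, 2.62 to 8.62), Foxp3+ (3.61, 1.35 to 13.6) and macrophage or monocyte-like cells (1.69, 1.16 to 2.49), and Tbx21 in natural killer cells (1.80, 1.18 to 2.79). In CD4+ Foxp3- and Foxp3+ cells Batf gave 327 against 13 and 68 against 4 UMIs. It reached 50 UMIs there only through the sensitive library. In fibroblast-like cells Nr4a3 was at 10.5 and 5.23 CPM (2.0, 1.46 to 2.78) and Prdm1 at 5.38 and 1.59 CPM (3.39, 1.98 to 6.13).

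**Figure D5:**
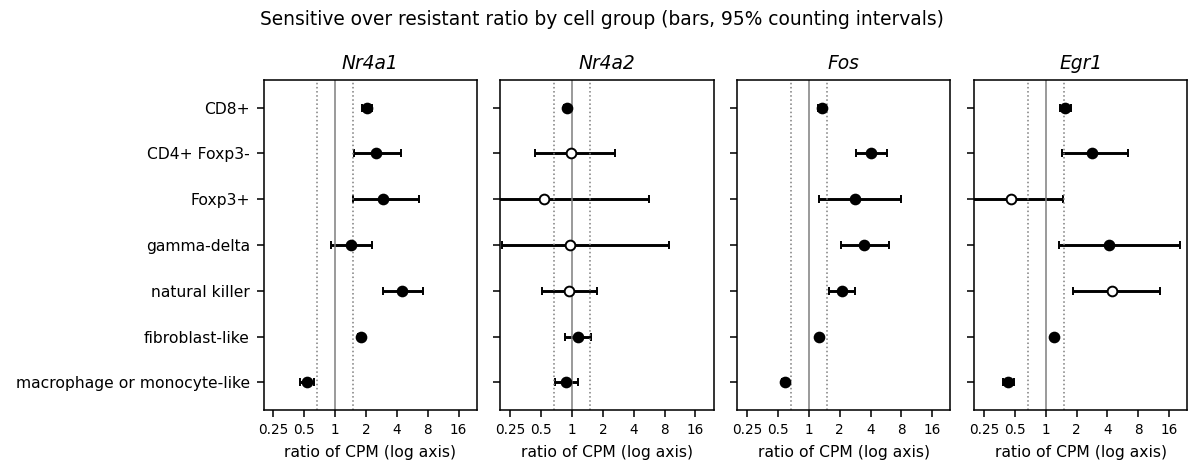
Ratio of the sensitive over the resistant library (log axis) for Nr4a1, Nr4a2 and the immediate early genes Fos and Egr1 in 7 cell groups, with 95% counting intervals. Open points have fewer than 50 UMIs and dotted lines mark the 1.5-fold limits. Nr4a1 and Fos lie above 1 in the lymphocyte gates and at 0.535 and 0.579 in macrophage or monocyte-like cells, while Nr4a2 is near 1 wherever 50 UMIs were reached.

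Other immediate early genes are given beside Nr4a1, since tissue digestion can also induce them. Fos stood at 1.34 in CD8+, 4.01 in CD4+ Foxp3-, 2.83 in Foxp3+, 3.42 in gamma-delta, 2.09 in natural killer, 1.26 in fibroblast-like cells and 0.579 in the macrophage or monocyte-like group. Egr1 stood at 1.56 in CD8+, 2.83 in CD4+ Foxp3-, 4.13 in gamma-delta, 1.20 in fibroblast-like cells and 0.432 in the macrophage or monocyte-like group. Fos in CD8+ cells and both genes in fibroblast-like cells were inside the 1.5-fold limit. Jun stood at 1.17 in CD8+, 2.45 in CD4+ Foxp3-, 0.794 in Foxp3+, 3.15 in natural killer and 1.24 in fibroblast-like cells and at 0.589 in the macrophage or monocyte-like group. Jun in gamma-delta cells was just inside the limit, at 1.496. Junb stood at 1.502 in CD8+, 1.78 in CD4+ Foxp3-, 1.93 in Foxp3+, 2.17 in gamma-delta, 1.84 in natural killer and 1.495 in fibroblast-like cells and at 0.757 in the macrophage or monocyte-like group. The share of mitochondrial UMIs also differed between the libraries in every group, with medians of 1.84% and 3.17% in fibroblast-like cells and 3.26% and 4.72% in the macrophage or monocyte-like group. The part of these measures in the Nr4a1 ratio was not tested.

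Within CD8+ cells at equal depth the Nr4a genes went together. Cells with an Nr4a1 UMI held 4.54 times (2.82 to 7.24) the Nr4a3 level of cells without in the sensitive and 5.54 times (3.50 to 8.63) in the resistant library, and 2.44 and 1.99 times the Nr4a2 level. Cells with Nr4a2 held 4.10 and 3.75 times the Nr4a3 level. Tox stood apart from Nr4a1, at 1.06 (0.707 to 1.55) and 1.08 (0.738 to 1.53) in cells with Nr4a1, but was 1.87 and 1.58 times higher in cells with Nr4a2. Cells with Tox held 2.12 times (1.26 to 3.48) and 2.75 times (1.68 to 4.44) the Eomes level, and Tbx21 was level in them at 0.981 and 1.05. Eomes in cells with Tbx21 was at 0.947 (0.468 to 1.76) and 0.710 (0.252 to 1.62). Batf in cells with Tox was at 2.20 (1.62 to 2.96) in the sensitive and 1.40 (0.944 to 2.03) in the resistant library. These cells share a library, and the intervals cover counting error only.

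Across 16 profiles, made of the 4 receptor classes and the 4 other gates in each library, the genes whose level followed each member most closely were found among 4580 genes with at least 200 UMIs, as Pearson's r of log2(CPM + 10). For Nr4a1 these were Zfp36 (0.939), which encodes an mRNA-destabilizing immediate early protein, and Selenop (0.918). Nr4a2 was followed by Gm156 (0.942) and Ppic (0.939), Nr4a3 by Dcun1d5 (0.921) and Rac1 (0.887), and Tox by Nrn1 (0.851) and Camk4 (0.829). Batf was followed by H2-D1 (0.888) and the chemokine receptor Ccr8 (0.875), Eomes by Arsb (0.921) and Lgals3 (0.907), and Tbx21 by perforin, Prf1 (0.906), and Eomes (0.899). Tox2 and Prdm1, at 34 and 162 UMIs, were below the UMI minimum. Among the members themselves Nr4a1 and Nr4a2 ran opposite (-0.627), and Nr4a2 and Tox (0.712) and Nr4a3 and Batf (0.729) ran together. The profiles share 2 libraries and differ in depth, so these values are descriptions.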

How the data were processed

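The authors aligned reads to mm10 with Cell Ranger (6.0.0 per the file headers) and deposited UMI counts per gene and barcode, without normalization. The whole-tumor libraries were not used here. The members and all gene lists were chosen with earlier results of these data known.

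Kept barcodes had 500 or more genes and 10% or less of mitochondrial UMIs, and the highest Scrublet scores (0.8% per 1000 cells, 101 sensitive and 84 resistant cells) were removed as putative doublets. The libraries were clustered together with scanpy 1.11.5 in Python 3.11.15 (10000 UMIs per cell, 2000 variable genes, 30 components, 15 neighbors, Leiden resolution 1 with leidenalg 0.10.2). A T cell name needed a Cd3 UMI in at least 75% of cells. That limit was set after the clusters were seen and left out cluster 15, led by mast cell proteases, with 23 sensitive and 10 resistant cells. Cluster names are rebuilt and may differ from those of the study. Cluster 10, led by immunoglobulin genes, was kept for its Cd3, and values without it are given.

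Levels are UMIs summed over cells as CPM, with exact Poisson intervals. Ratios carry exact conditional binomial intervals and shares Clopper-Pearson intervals (scipy 1.17.1), all at 95%. A count of 0 allows up to 3 counts. UMIs of a droplet are counted after amplification and cells are not replicates, so the intervals cover counting error only. Receptor classes and shares were counted after thinning cells to 2000 UMIs. All 9 members are named. From each list the 2 genes with the highest and the 2 with the lowest ratio past 1.5-fold were named, and for each member the 2 most alike genes. A result that needs 1 further gene is not reported here. Fos, Egr1, Jun and Junb were given beside Nr4a1 after values were seen. The ratio and counting code was tested on simulated data. Depth was 31690845 and 35908799 UMIs. Alternatives are given in the closing section.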

Additional observations from a re-analysis of the deposited data

Results flagged for a closer look

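The sensitive over resistant ratio of Nr4a1 ran in opposite directions in different cell groups of the same libraries. It was 2.05 in CD8+ cells, 2.5 in CD4+ Foxp3- cells, 2.95 in Foxp3+ cells, 4.49 in natural killer cells and 1.78 in fibroblast-like cells, and 0.535 in macrophage or monocyte-like cells. All 6 ratios passed 1.5-fold with a counting interval off 1. The fibroblast-like and macrophage or monocyte-like groups also differed in make-up between the libraries. Cluster 13 held 140 sensitive and 4 resistant fibroblast-like cells, and cluster 18 held 24 and 1 macrophage or monocyte-like cells. With 1 library per group the difference between the cell groups was not tested.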

How the results depend on the processing

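The limits are those of 2 libraries. Pooled tumors give no spread between mice, the mitochondrial limit removed 45.7% of resistant and 5.90% of sensitive barcodes, and the gates other than CD8+ hold as few as 12 cells. No paired analysis was possible because each group had 1 library.

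In the sensitive library 5 members passed 1.5-fold between cells with 2 or 3 receptors and cells with none. The count was 3 with cells thinned to 1000 UMIs, 3 with Tigit and Ctla4 added to the receptors, 3 with all 3 receptors against none and 3 without cells with Mki67 or Top2a. In each of these Nr4a2, Tox and Batf remained, and fewer UMIs were compared. It was 6 with no doublets removed, where Eomes was at 1.96 in place of 1.46. Within cluster 0 it was 2 by the rule, Tox at 1.63 (0.616 to 6.13) and Tbx21 with 50 UMIs against 0 in 17 cells. At the floor of 3 counts that is at least 1.24-fold, so the call of Tbx21 is not supported. Within cluster 2 it was 0. In the resistant library 2 members passed. The count was 4 without thinning, 4 with at least 2 UMIs of a receptor, 5 with all 3 receptors, 4 with a mitochondrial limit of 20%, 4 without cells with Mki67 or Top2a (3 higher and Nr4a1 lower), 4 under another random thinning, and 0 within cluster 0 and within cluster 2. Between libraries 5 members passed. The count was 3 without cells with Mki67 or Top2a and 3 with cells thinned to 2000 UMIs, Nr4a1, Batf and Prdm1 in both. It was 3 within cells with 0 receptors (Nr4a1 and Tbx21 higher, Tox lower), 2 with 1 receptor and 2 with 2 (Nr4a1 and Batf higher in both) and 1 with 3 (Nr4a2 higher, which is not one of the 5). Apart from the smaller numbers of UMIs, the cause was not tested. Another thinning, the comparisons within clusters and those without cluster 10 were added after seeing the data.

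Of 284 values of 22 member ratios under alternatives, 244 stayed within the counting interval of the reported ratio, 40 moved outside it and 0 turned a called direction. Where at least 50 UMIs were compared, the receptor ratio of Nr4a2 ranged from 1.32 to 7.42 in the sensitive and from 1.14 to 4.31 in the resistant library, and that of Tox from 1.63 to 6.14 and from 1.20 to 6.57. In the resistant library the receptor ratio of Nr4a1 was 1.81 with a mitochondrial limit of 20% and 0.640 without cells with Mki67 or Top2a. The ratio of the libraries for Nr4a1 ranged from 1.67 to 2.49 over the alternatives with at least 50 UMIs, and by cluster from 1.11 in cluster 0 and 1.29 in cluster 2 to 2.89 in cluster 10.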
